A study of Homo sapiens with 12 samples.

Results

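The stem cell factor receptor KIT with its ligand KITLG, and the platelet derived growth factor (PDGF) receptors PDGFRA and PDGFRB with the ligands PDGFA, PDGFB, PDGFC and PDGFD, form a set of 8 genes among the 18404 named genes measured in this series. The set was chosen by name, with earlier results of these data known. Each gene is represented by the probe set annotated with its symbol alone, and each had exactly 1 such probe set. A further probe set annotated with both EBF1 and PDGFRB was left out. The samples were 12 Affymetrix arrays of 2 established lines grown from human melanomas, A375 and A2058, both with BRAF V600E per the labels. The 4 groups, of 3 arrays each, were A375 with vemurafenib, A375 with DMSO, A2058 with vemurafenib and A2058 with DMSO. Vemurafenib, a kinase inhibitor directed at mutant BRAF, was given at 1 µM for 72 h and renewed every 24 h, and the controls received the same volume of its solvent DMSO. That treatment text stands on all 12 samples but names only A375p, which is the sole source here for the dose and time in A2058. Each group is 1 cell line, and the labels do not say whether the 3 arrays came from separate cultures, so p-values measure the spread between these arrays.

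KIT, PDGFRA and PDGFRB are closely related receptor tyrosine kinases, which pair on binding a dimeric ligand, phosphorylate each other and feed the RAS-ERK and PI3K pathways. KITLG binds KIT and is needed for the survival and migration of melanocyte precursors. PDGF-A, -B and -C chains bind the alpha receptor, PDGF-B and PDGF-D bind the beta receptor, and the C and D chains are secreted with a domain that proteases must remove. Normal melanocytes express KIT, while the PDGF receptors are best known from fibroblasts, pericytes and smooth muscle.

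Values are the authors' deposited log2 expression values, 1 per probe set and array, so a difference of 1 is a doubling. They carry no detection call. As a scale of low signal, the 95th percentile of 340 olfactory receptor genes, which are read mainly in sensory neurons, was taken on each array and lay between 4.76 and 4.89. Probe sets differ in brightness, so levels were compared between groups for 1 gene and not between genes, and changes of genes near that range are compressed. Each change is a difference between group means in log2 units, given ± its SE, from a single limma fit of the 12 arrays. Its p was adjusted by the Benjamini-Hochberg method over 18404 genes, and calls required an adjusted p under 0.05. A375 vemurafenib replicate 1 stood apart (its r with the remaining arrays of that group was 0.9939 and 0.9941, against 0.9978 to 0.9989 within the other 3 groups), and results that turn on it are given with and without it. Of 9 measured melanocytic markers, 6 in A375 vemurafenib, 5 in A375 DMSO, 8 in A2058 vemurafenib and 7 in A2058 DMSO lay above the olfactory receptor range on all 3 arrays; MLANA, GPR143 and TYR did not in either A375 group.

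With vemurafenib, 5 of the 8 genes were called in A375, where 37.0% of all genes were called, and 5 of 8 in A2058, against 27.1% of all genes. In A375 PDGFRB rose, as did 17.7% of all genes, and PDGFRA, PDGFA, PDGFC and PDGFD fell, as did 19.3%. In A2058 KIT rose, as did 14.6% of all genes, and KITLG, PDGFA, PDGFC and PDGFD fell, as did 12.5%. The response in A375 minus that in A2058 was called for 5 of 8 genes, against 29.5% of all genes: 2 were higher (13.1% of all genes) and 3 lower (16.4%). The median change of the 8 genes was -0.24 in A375 and -0.116 in A2058, beside medians over all genes of 0.00419 and 0.00635. The groups did not overlap for 6 of the 8 genes in A375 and 5 of 8 in A2058, against 43.6% and 40.6% of all genes.

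**Figure D1:**
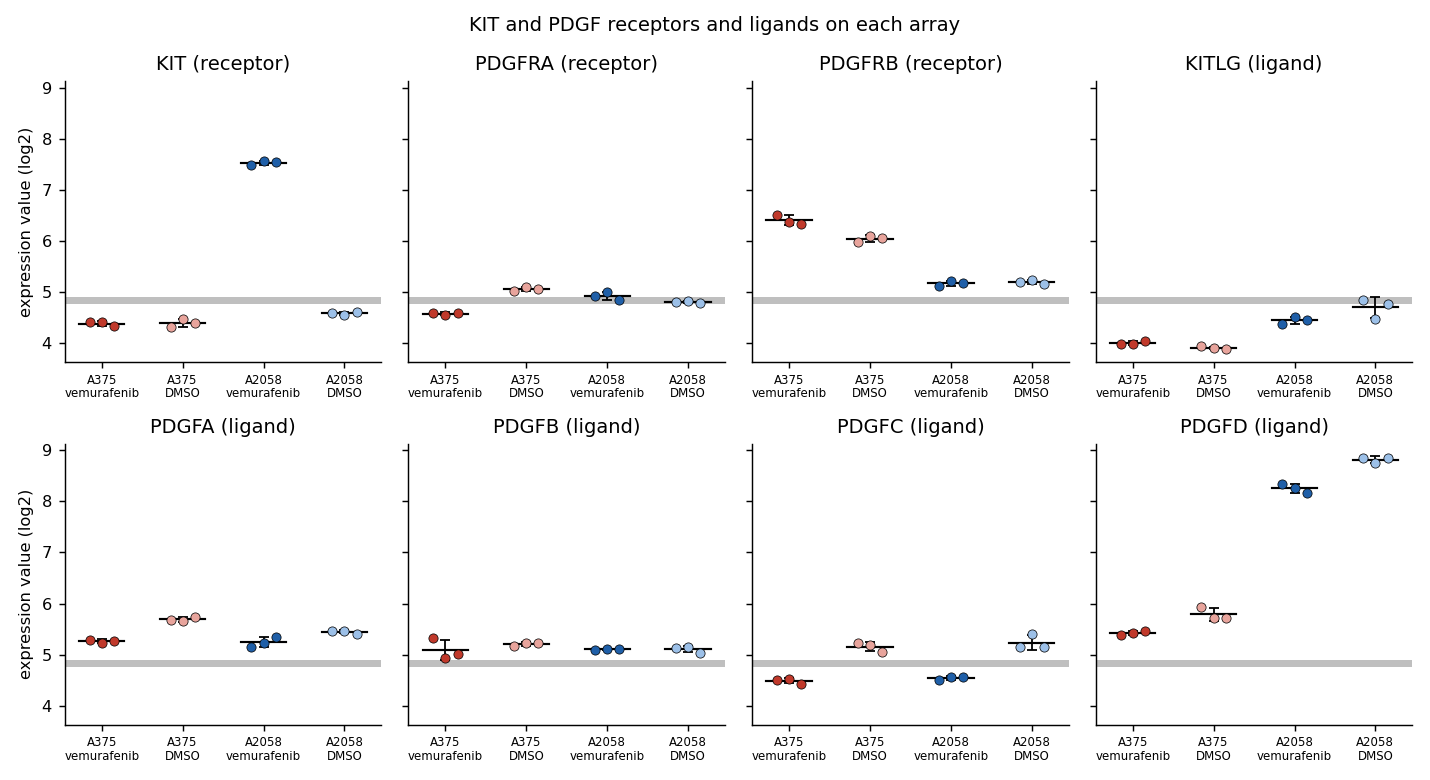
Log2 expression value (y axis) of each of the 8 genes on each of the 12 arrays (points), with the group mean (horizontal line) and SD (error bar, n = 3); the grey band spans the 95th percentiles of olfactory receptor genes on the arrays, 4.76 to 4.89. KIT lies above the band on the 3 A2058 vemurafenib arrays (7.49 to 7.57) and below it on the other 9.

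KIT, the receptor for stem cell factor, had the largest change of the 8 genes. Its values were 7.49, 7.57 and 7.54 in A2058 vemurafenib, against 4.58, 4.55 and 4.60 in A2058 DMSO. In A375 they were 4.40, 4.41 and 4.33 with vemurafenib and 4.32, 4.47 and 4.39 with DMSO. The 3 treated A2058 arrays stood far above the other 9, all of which lay within the range of olfactory receptor genes, and in A375 the groups overlapped. KIT thus rose in A2058 by 2.96 ± 0.047 (7.76-fold, adjusted p = 1.12e-12), a fold measured from a signal within that low range. In A375 it was not called (-0.01 ± 0.047, 95% interval -0.12 to 0.09, adjusted p = 0.873). The response differed between the lines by -2.97 ± 0.066 (A375 minus A2058, adjusted p = 1.08e-11). The summed log2 values of the 9 melanocytic markers were 59.7 to 60.5 in A375 vemurafenib, 57.3 to 58.1 in A375 DMSO, 82.6 to 82.9 in A2058 vemurafenib and 72.1 to 72.5 in A2058 DMSO. They were highest in the group with the highest KIT, and their part in that result was not tested. Among these markers the melanosome protein PMEL averaged 10.88 in A2058 vemurafenib and 8.45 in A2058 DMSO. The pigment enzyme TYR averaged 11.38 in A2058 vemurafenib and 10.93 in A2058 DMSO. In the same order, TYRP1 averaged 9.33 and 6.06, MLANA 7.08 and 4.75, and PAX3 8.29 and 7.30. S100B was close in these groups (11.05 with vemurafenib and 10.96 with DMSO), and GPR143 alone was lower with vemurafenib (4.76 against 4.85). GPR143 did not lie above the olfactory receptor range on all 3 arrays of either A2058 group, so its small difference is not readable as a fall. In A375, where KIT was not called, S100B averaged 10.47 with vemurafenib and 9.46 with DMSO. There, in the same order, PMEL averaged 5.07 and 4.99, MLANA 4.54 and 4.44, and TYR 4.57 and 4.57. TYRP1 averaged 5.30 and 4.92, PAX3 6.88 and 6.71, and GPR143 4.72 and 4.79. MITF and SOX10 are given below.

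The 250 bases before the start of KIT are shown because this gene changed most. They come from RefSeq (GRCh38.p14, chr4:54657707-54657956, plus strand) and run 5′ to 3′, with capitals for the match to a GC box.
KIT promoter: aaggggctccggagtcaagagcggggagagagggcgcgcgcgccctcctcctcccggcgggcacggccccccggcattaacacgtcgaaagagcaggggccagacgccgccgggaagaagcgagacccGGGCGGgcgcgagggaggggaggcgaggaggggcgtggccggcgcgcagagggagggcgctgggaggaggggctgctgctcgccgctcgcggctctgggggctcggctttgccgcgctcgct
The 250-base windows before the gene starts were searched on both strands for GC boxes (GGGCGG), AP-2 sites (GCCNNNGGC), the E-boxes CACGTG and CATGTG that MITF can bind, TATA boxes (TATAAA) and an ETS motif (CCGGAAG). RefSeq windows were at hand for 6 of the 8 genes, 10 windows in all, since PDGFRA has 2 and PDGFA has 4; PDGFB and PDGFC had none. A GC box stood in 9 of the 10 windows, against 42.6% of 35116 windows of all genes, and an AP-2 match in 4 of 10, against 19.8%. The AP-2 matches were in windows of PDGFA and KITLG alone, most of them in those of PDGFA. Windows of 1 gene share a locus and are not independent, and GC-rich motifs are common in GC-rich windows. CACGTG was in none of the 10 (6.34% of all windows) and CATGTG in none (9.42%). The TATA box (10.7% of all windows) and the ETS motif (8.52%) each stood in 1 window, that of KITLG. A match of letters is not a bound site.

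The transcription factor MITF, a regulator of pigment cell genes that is linked to KIT in melanocytes, rose in both lines. MITF rose by 0.73 ± 0.047 in A375 (means 9.08 with vemurafenib and 8.35 with DMSO, adjusted p = 5.66e-08) and by 0.73 ± 0.047 in A2058 (means 10.50 with vemurafenib and 9.77 with DMSO, adjusted p = 1.21e-07). For MITF the response did not differ between the lines by the test (0.00 ± 0.066, adjusted p = 0.987). TFAP2A, an AP-2 factor of the neural crest, rose by 1.36 ± 0.13 in A375 (means 7.23 with vemurafenib and 5.87 with DMSO, adjusted p = 1.87e-06) and by 0.81 ± 0.13 in A2058 (means 10.06 with vemurafenib and 9.25 with DMSO, adjusted p = 0.000315). SOX10, which drives MITF in melanocytes, fell by 0.15 on the log2 scale in A375 (adjusted p = 0.0172) and rose by 0.27 ± 0.044 in A2058 (adjusted p = 0.000422). The response in A375 minus that in A2058 was called for TFAP2A (0.55 ± 0.18, adjusted p = 0.0326) and for SOX10 (-0.42 ± 0.062, adjusted p = 0.000194). The part of MITF, TFAP2A and SOX10 in the KIT result was not tested. The genes most like KIT over the 12 arrays were the carbonic anhydrase CA14 (r = 0.9988), the kinase DCLK1 (0.9976) and the melanosome protein MLANA (0.9973). CA14 averaged 6.84 in A2058 vemurafenib and 4.35 to 4.57 in the other 3 groups. These r values are a measure of likeness across arrays that fall into 4 groups, and they mainly follow the 4 group means.

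KITLG, the ligand of KIT, was low throughout: 11 of its 12 values lay within the range of olfactory receptor genes. Its values were 4.38, 4.50 and 4.44 in A2058 vemurafenib, against 4.85, 4.47 and 4.77 in A2058 DMSO. DMSO replicate 2 lay among the treated arrays, so these groups overlapped. KITLG fell by 0.26 on the log2 scale in A2058 (SE 0.078, adjusted p = 0.0254). Single arrays decided the KITLG call: it no longer held with DMSO replicate 1 of A2058 left out (-0.18, adjusted p = 0.12) or replicate 3 (-0.22, 0.0978), nor without A2058 vemurafenib replicate 1 (-0.23, 0.0969) or 3 (-0.26, 0.0658). It was also lost when the 6 A2058 arrays were fitted alone (adjusted p = 0.0534) and with the replicate number as a block within each line (0.0686).

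In A375, KITLG read 3.97, 3.97 and 4.04 with vemurafenib and 3.93, 3.90 and 3.88 with DMSO. These groups did not overlap, yet the change was not called (0.09 ± 0.078, 95% interval -0.08 to 0.26, adjusted p = 0.46), nor with any 1 of the 12 arrays left out (adjusted p 0.159 to 0.651). The difference between the responses was called (0.35 ± 0.11, adjusted p = 0.0306), but not without any of A375 DMSO replicates 2 and 3, A375 vemurafenib replicate 3, A2058 DMSO replicates 1 and 3 and A2058 vemurafenib replicates 1 and 3 (adjusted p 0.0584 to 0.0759). The genes most like KITLG were the spindle checkpoint protein MAD2L1 (r = 0.9781), the DNA glycosylase NEIL3 (0.9716) and the kinetochore protein CENPK (0.9711).

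The PDGF receptors changed in A375 and in opposite directions. PDGFRB, the receptor for PDGF-B and PDGF-D, had values of 6.51, 6.37 and 6.33 in A375 vemurafenib, against 5.97, 6.10 and 6.05 in A375 DMSO. Every treated array lay above every control array, and the highest of all was replicate 1, the array that stood apart. PDGFRB rose by 0.37 ± 0.054 (1.29-fold, adjusted p = 0.000128), and by 0.31 to 0.40 when each of the 12 arrays was left out in turn. In A2058 it read 5.11, 5.21 and 5.18 with vemurafenib and 5.19, 5.24 and 5.16 with DMSO, groups that overlapped. The change there was not called (-0.03 ± 0.054, 95% interval -0.15 to 0.09, adjusted p = 0.796), and the responses differed (0.40 ± 0.077, adjusted p = 0.00152). All 12 values lay above the range of olfactory receptor genes.

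The 250 bases before the start of PDGFRB, the receptor that rose in A375, are given as for KIT, with the GC box in capitals (RefSeq, GRCh38.p14, chr5:150155846-150156095, minus strand).
PDGFRB promoter: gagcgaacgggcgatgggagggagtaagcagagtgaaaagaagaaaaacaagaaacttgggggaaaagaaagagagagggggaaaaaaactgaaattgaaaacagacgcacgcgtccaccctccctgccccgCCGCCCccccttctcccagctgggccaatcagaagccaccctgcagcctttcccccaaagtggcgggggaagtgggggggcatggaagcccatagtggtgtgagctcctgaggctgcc
Its match reads as the reverse complement of GGGCGG. The window held 58.4% G or C, near the median of 58% over all windows, against 76.4% before KIT. The genes most like PDGFRB were TMEM132A (r = 0.9940), the xylosyltransferase XYLT1 (0.9940), which starts glycosaminoglycan chains, and OAF (0.9929). XYLT1 averaged 7.96 in A375 vemurafenib, 7.25 in A375 DMSO, 5.66 in A2058 vemurafenib and 5.57 in A2058 DMSO.

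PDGFRA, the receptor for the A, B and C chains, had values of 4.59, 4.54 and 4.58 in A375 vemurafenib, against 5.01, 5.10 and 5.06 in A375 DMSO. The treated arrays lay within the range of olfactory receptor genes and the control arrays just above it. PDGFRA fell by 0.49 on the log2 scale (SE 0.044, 1.4-fold lower, adjusted p = 1.51e-06), so its drop ended within the low range and may be understated. In A2058 the values were 4.91, 5.0 and 4.85 with vemurafenib and 4.80, 4.82 and 4.78 with DMSO. These groups did not overlap, but the change missed the threshold (0.12 ± 0.044, 95% interval 0.03 to 0.22, adjusted p = 0.0547). It passed without A375 vemurafenib replicate 1 (adjusted p = 0.0422), without A2058 vemurafenib replicate 3 (0.0251) and with array weights (0.0133), over a range of 0.0251 to 0.232 for left-out arrays. The responses of PDGFRA in the lines differed (-0.61 ± 0.062, adjusted p = 7.93e-06).

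**Figure D2:**
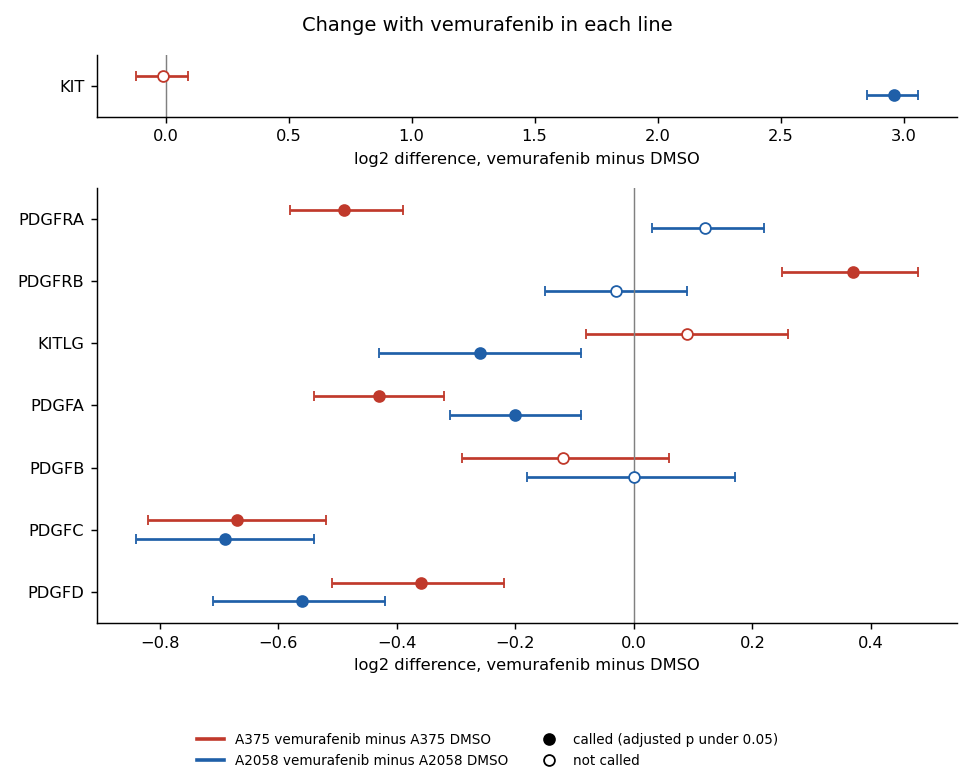
Log2 difference, vemurafenib minus DMSO (x axis), of each gene in A375 (red) and A2058 (blue) with its 95% interval from the fit; filled points were called and open points were not. KIT has its own axis, with -0.01 in A375 and 2.96 in A2058; PDGFA, PDGFC and PDGFD lie left of 0 in both lines.

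Among the PDGF ligands, PDGFA, PDGFC and PDGFD fell in both lines. Of all genes, 6.85% were called lower in both, while 19.3% were called lower in A375 and 12.5% in A2058. PDGFC, a ligand of the alpha receptor, read 4.51, 4.52 and 4.43 in A375 vemurafenib and 5.23, 5.19 and 5.05 in A375 DMSO. In A2058 it read 4.50, 4.57 and 4.56 with vemurafenib and 5.15, 5.40 and 5.15 with DMSO. The 6 treated arrays all lay within the range of olfactory receptor genes and the 6 control arrays above it. PDGFC changed by -0.67 ± 0.069 in A375 (1.59-fold lower, adjusted p = 5.47e-06) and by -0.69 ± 0.069 in A2058 (1.61-fold lower, adjusted p = 7.37e-06). No difference between the responses was called (0.02 ± 0.098, 95% interval -0.19 to 0.24, adjusted p = 0.916). Both falls ended within the low range, so each may be understated and a difference between them could be hidden. The genes most like PDGFC were the sialomucin PODXL (r = 0.9822), SHISA2 (0.9676) and the ubiquitin ligase TRIM62 (0.9660). SHISA2 averaged 7.11 in A375 vemurafenib, 9.81 in A375 DMSO, 7.44 in A2058 vemurafenib and 10.74 in A2058 DMSO.

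PDGFD, a ligand of the beta receptor, had values of 5.39, 5.42 and 5.47 in A375 vemurafenib, against 5.94, 5.72 and 5.71 in A375 DMSO. In A2058 they were 8.35, 8.26 and 8.16 with vemurafenib and 8.85, 8.75 and 8.86 with DMSO. In each line all treated arrays lay below all control arrays, and every A2058 value was far above every A375 value. PDGFD changed by -0.36 ± 0.067 in A375 (1.29-fold lower, adjusted p = 0.000676) and by -0.56 ± 0.067 in A2058 (1.48-fold lower, adjusted p = 3.13e-05). The difference between these responses was not called (0.20 ± 0.094, 95% interval -0.01 to 0.40, adjusted p = 0.151), except without A375 DMSO replicate 1 (0.27, adjusted p = 0.0272, over a range of 0.0272 to 0.318). The genes most like PDGFD were the matrix glycoprotein THBS2 (r = 0.9977), FAM111B (0.9955) and the fatty acid elongase ELOVL2 (0.9944). THBS2 averaged 6.46 in A375 vemurafenib, 6.77 in A375 DMSO, 10.73 in A2058 vemurafenib and 11.77 in A2058 DMSO.

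The 250 bases before the start of PDGFD, which fell in both lines and differed most between them with DMSO, are shown in the same way (RefSeq, GRCh38.p14, chr11:104164148-104164397, minus strand), with the GC box, again on the reverse strand, in capitals.
PDGFD promoter: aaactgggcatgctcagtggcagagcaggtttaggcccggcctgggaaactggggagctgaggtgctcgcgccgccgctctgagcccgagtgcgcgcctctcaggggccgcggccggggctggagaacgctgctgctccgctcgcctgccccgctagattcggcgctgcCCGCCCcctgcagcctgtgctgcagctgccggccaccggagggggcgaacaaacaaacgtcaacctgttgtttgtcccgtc
This window held 69.2% G or C. Each of the 3 windows shown had 1 GC box and no match to the AP-2 motif or to either E-box.

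PDGFA, a ligand of the alpha receptor, read 5.29, 5.22 and 5.27 in A375 vemurafenib and 5.67, 5.66 and 5.74 in A375 DMSO. In A2058 it read 5.15, 5.23 and 5.35 with vemurafenib and 5.46, 5.47 and 5.41 with DMSO. The groups did not overlap in either line. PDGFA changed by -0.43 ± 0.051 in A375 (1.35-fold lower, adjusted p = 1.93e-05) and by -0.20 ± 0.051 in A2058 (1.15-fold lower, adjusted p = 0.0105). The A2058 call was lost without A2058 vemurafenib replicate 1 (-0.15, adjusted p = 0.0532). The larger response in A375 was called (-0.23 ± 0.073, adjusted p = 0.0304), but not without A375 DMSO replicate 3, A375 vemurafenib replicate 2, A2058 DMSO replicate 3 or A2058 vemurafenib replicate 2 or 3 (adjusted p 0.05 to 0.0787).

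PDGFB, a ligand of both receptors, was not called in either line. It read 5.32, 4.93 and 5.02 in A375 vemurafenib and 5.16, 5.23 and 5.23 in A375 DMSO. Replicate 1 of the treated group lay above the controls and the other two below them. The change was -0.12 ± 0.08 with all arrays (95% interval -0.29 to 0.06, adjusted p = 0.32), and -0.23 without A375 vemurafenib replicate 1 (adjusted p = 0.00115, over a range of 0.00115 to 0.776), so 1 array decided this result. In A2058, PDGFB read 5.09, 5.11 and 5.10 with vemurafenib and 5.13, 5.14 and 5.04 with DMSO. The groups overlapped and the change was -0.003 ± 0.08 (95% interval -0.18 to 0.17, adjusted p = 0.99). The difference between the responses was -0.11 ± 0.11 (adjusted p = 0.566), and -0.23 without A375 vemurafenib replicate 1 (adjusted p = 0.0112, over a range of 0.0112 to 0.871).

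The lines also differed from each other under the same agent. With vemurafenib 5 of the 8 genes were called between A375 and A2058, where 46.9% of all genes were called, and with DMSO 6 of 8, against 46.4%. With vemurafenib 1 gene was higher in A375 (22.7% of all genes) and 4 lower (24.2%), and with DMSO 3 were higher (23.9%) and 3 lower (22.5%). Groups did not overlap for 5 of 8 genes with vemurafenib (51.2% of all genes) and 7 of 8 with DMSO (56.8%). The 2 comparisons use different arrays, but each shares its arrays with the vemurafenib comparisons above. Line and any handling that differed between the lines cannot be told apart.

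PDGFD was 7.11-fold lower in A375 vemurafenib than in A2058 vemurafenib (-2.83 ± 0.067, adjusted p = 2.59e-12) and 8.16-fold lower in A375 DMSO than in A2058 DMSO (-3.03 ± 0.067, adjusted p = 1.72e-12). Its beta receptor ran the other way. PDGFRB was 2.36-fold higher in A375 vemurafenib than in A2058 vemurafenib (1.24 ± 0.054, adjusted p = 9.11e-10) and 1.79-fold higher in A375 DMSO than in A2058 DMSO (0.84 ± 0.054, adjusted p = 4.24e-08). KIT differed by 8.91-fold with vemurafenib (-3.15 ± 0.047, adjusted p = 3.99e-14, lower in A375), where all 3 A375 arrays lay within the range of olfactory receptor genes, and little with DMSO (-0.18 ± 0.047, adjusted p = 0.00534, both groups within the range of olfactory receptor genes).

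KITLG was lower in A375 with either agent (-0.45 ± 0.078 with vemurafenib, adjusted p = 0.000359; -0.80 ± 0.078 with DMSO, adjusted p = 2.18e-06). PDGFRA was lower in A375 with vemurafenib (-0.35 ± 0.044, adjusted p = 1.82e-05) and higher in A375 with DMSO (0.26 ± 0.044, adjusted p = 0.000269). PDGFA was not called with vemurafenib (0.02 ± 0.051, 95% interval -0.10 to 0.13, adjusted p = 0.849) and was higher in A375 with DMSO (0.25 ± 0.051, adjusted p = 0.00137). PDGFC was called with neither agent (-0.06 ± 0.069 with vemurafenib, adjusted p = 0.58; -0.08 ± 0.069 with DMSO, adjusted p = 0.404). PDGFB was not called with vemurafenib (-0.01 ± 0.08, adjusted p = 0.94) or with DMSO (0.10 ± 0.08, adjusted p = 0.352), but with vemurafenib it passed without A375 vemurafenib replicate 1 (-0.13, adjusted p = 0.035, over a range of 0.035 to 0.98).

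**Figure D3:**
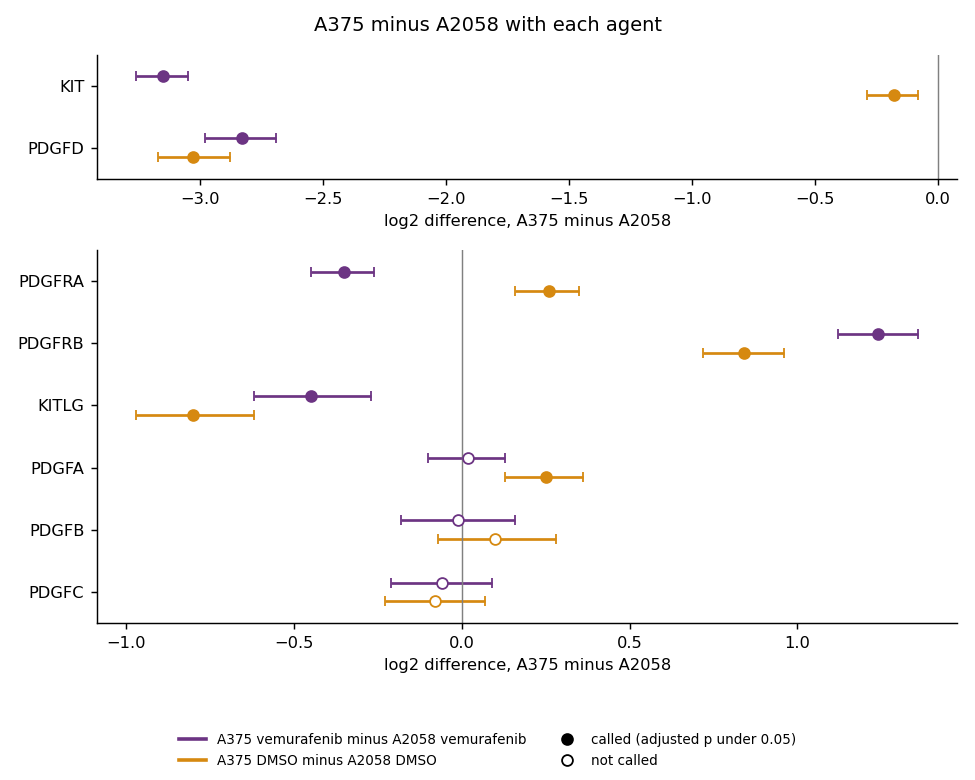
Log2 difference, A375 minus A2058 (x axis), of each gene with vemurafenib (purple) and with DMSO (orange), with its 95% interval from the fit; filled points were called and open points were not. PDGFD lies far left of 0 with both agents (-2.83 with vemurafenib and -3.03 with DMSO) and KIT with vemurafenib alone (-3.15, against -0.18 with DMSO), while PDGFRA changes sides.

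From the group means the order was as follows, with groups joined where their values overlapped. KIT ran from A2058 vemurafenib to A2058 DMSO and then the 2 overlapping A375 groups. PDGFRB ran from A375 vemurafenib to A375 DMSO and then the 2 overlapping A2058 groups. PDGFD ran from A2058 DMSO through A2058 vemurafenib and A375 DMSO to A375 vemurafenib, with no overlap between neighbours. PDGFC had the 2 overlapping DMSO groups above the 2 overlapping vemurafenib groups. The span of the 4 group means was 3.39 for PDGFD, 3.15 for KIT, 1.24 for PDGFRB, 0.80 for KITLG, 0.75 for PDGFC, 0.49 for PDGFRA, 0.45 for PDGFA and 0.12 for PDGFB.

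Other genes of these pathways were read from the same fit through 5 lists written from general knowledge, beside the shares of all genes that rose (17.7% in A375 and 14.6% in A2058) or fell (19.3% and 12.5%) and their medians (0.00419 and 0.00635). Of 12 measured genes of related receptors (the colony stimulating factor, FLT3 and VEGF receptors) and their ligands, 4 rose and 2 fell in A375 (median 0.02), and 1 rose and 4 fell in A2058 (median -0.03). IL34 (1.86 ± 0.052, adjusted p = 1.97e-11) and CSF1 (1.14 ± 0.076, adjusted p = 7.86e-08), both ligands of the receptor CSF1R, rose in A375. VEGFA fell in A375 (-0.57 ± 0.064) and by more in A2058 (-1.94 ± 0.064; difference 1.37 ± 0.09, adjusted p = 1.51e-07). Its receptor FLT1 fell in A2058 (-1.48 ± 0.077, adjusted p = 1.76e-08), and VEGFB fell in A375 (-0.68 ± 0.056) and rose in A2058 (0.41 ± 0.056). For FLT1 the response in A375 minus that in A2058 was 1.90 ± 0.11, larger in size than its fall in A2058.

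Of 32 measured adaptors and effectors that act just below the receptors, 7 rose and 11 fell in A375 (median -0.04), and 14 rose and 2 fell in A2058 (median 0.05). The PI3K regulatory subunits led the rises: PIK3R1 in A375 (1.92 ± 0.037, adjusted p = 6.01e-13) and PIK3R3 in A2058 (2.23 ± 0.088, adjusted p = 1.35e-09). The adaptor NCK2 rose in A375 (1.22 ± 0.052), where the PI3K catalytic subunit PIK3CD (-1.20 ± 0.053) and the phospholipase PLCG1 (-0.91 ± 0.052) fell most. For PLCG1 the response in A375 minus that in A2058 was -1.41 ± 0.074, larger in size than its fall in A375. In A2058 the docking protein GAB1 rose (0.97 ± 0.065, and 0.58 when its 2 probe sets were averaged), and the SRC family kinase FYN (-0.62 ± 0.043) and the adaptor SHC1 (-0.29 ± 0.045) fell. For GAB1, which showed no called difference between the responses of the lines (0.12 ± 0.092, adjusted p = 0.423), the averaged change in A375 was 0.67. No difference was called for SHC1 either (0.07 ± 0.064, adjusted p = 0.524). The difference (A375 minus A2058) was 0.58 ± 0.074 for NCK2 and -1.64 ± 0.12 for PIK3R3, each smaller in size than the rise given. For FYN it was 0.66 ± 0.061, larger in size than its fall in A2058.

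Of 20 measured negative regulators of the receptors, 3 rose and 7 fell in A375 (median -0.02), and 3 rose and 3 fell in A2058 (median 0.00). CBLB, a ubiquitin ligase for activated receptors, fell in A375 (-0.90 ± 0.058) and in A2058 (-0.60 ± 0.058), and SOCS6, which binds KIT, fell in A375 (-1.28 ± 0.06, adjusted p = 2.7e-09). The cytokine signalling inhibitor SOCS3 rose in both (0.54 ± 0.067 in A375 and 0.26 ± 0.067 in A2058). LRIG1, a membrane inhibitor of receptor kinases, rose in A375 (0.47 ± 0.056) and fell in A2058 (-0.59 ± 0.056; difference 1.06 ± 0.079, adjusted p = 4.66e-07). GRB10 rose in A2058 (0.40 ± 0.048). The difference of the responses (A375 minus A2058) was -1.24 ± 0.068 for GRB10 and -1.53 ± 0.085 for SOCS6, each larger in size than the change given.

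Of 19 genes whose products cleave, bind or present the ligands, 7 rose and 7 fell in A375 (median 0.02), and 4 rose and 6 fell in A2058 (median -0.08). The convertase PCSK5 rose in A375 (2.38 ± 0.11, adjusted p = 3.36e-09), as did the matrix protein THBS1 (1.86 ± 0.053), while the protease MMP9 fell (-1.47 ± 0.079). For THBS1 the response in A375 minus that in A2058 was 2.62 ± 0.075, larger than its rise in A375. CSPG4, a surface proteoglycan that binds PDGF, fell in A375 (-1.88 ± 0.06) and in A2058 (-1.07 ± 0.06). In A2058 the proteinase inhibitor A2M, which binds PDGF, rose (2.70 ± 0.053, adjusted p = 3.89e-12), as did the endocytic receptor LRP1 (0.70 ± 0.043), and NRP1, a coreceptor, fell (-1.23 ± 0.076). The difference of the responses (A375 minus A2058) was -3.04 ± 0.075 for A2M and -1.60 ± 0.06 for LRP1, each larger in size than the A2058 rise. For NRP1 it was 0.70 ± 0.11, smaller in size than its fall in A2058.

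Of 20 transcription factors linked to KIT in pigment, blood or gut cells, 7 rose and 6 fell in A375 (median 0.02), and 10 rose and 2 fell in A2058 (median 0.20). ZEB2 rose in both lines (2.30 ± 0.041 in A375 and 1.15 ± 0.041 in A2058), by 1.21 and 0.68 when its 2 probe sets were averaged. FOXD3, a neural crest factor, rose in A375 (1.69 ± 0.097), and SNAI2 rose in A2058 (1.26 ± 0.046). Neither rise was confined to the line named. For FOXD3 the response in A375 minus that in A2058 was 1.13 ± 0.14 (adjusted p = 3.82e-05), smaller than its rise in A375. For SNAI2 it was 0.36 ± 0.064 (adjusted p = 0.000776), so SNAI2 rose by more in A375 than in A2058. TFAP2C, an AP-2 factor, fell in both (-1.61 ± 0.056 in A375 and -1.53 ± 0.056 in A2058). ETV1, which acts below KIT in gut stromal tumours, fell in A375 (-0.81 ± 0.056) and by more in A2058 (-1.96 ± 0.056; difference 1.15 ± 0.079, adjusted p = 2.24e-07).

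**Figure D4:**
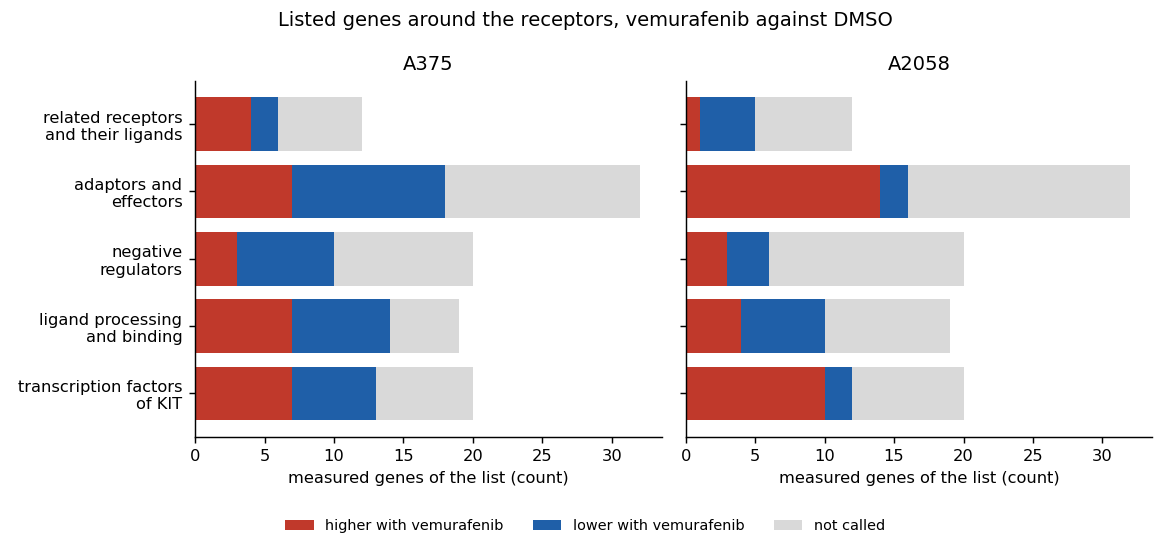
Number of measured genes (x axis) of each of the 5 lists (rows) that were higher (red), lower (blue) or not called (grey) with vemurafenib against DMSO, in A375 (left) and A2058 (right). The adaptors and effectors had 7 higher and 11 lower in A375, and 14 higher and 2 lower in A2058.

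Markers of other cells that carry these receptors were read beside the results. The summed log2 values of 10 fibroblast markers ran from 52.3 to 53.1 in A375 vemurafenib, 49.9 to 50.4 in A375 DMSO, 53.9 to 54.2 in A2058 vemurafenib and 55.1 to 55.8 in A2058 DMSO. Those of 10 pericyte and smooth muscle markers ran from 54.2 to 55.5, 53.7 to 54.1, 54.7 to 55.2 and 54.5 to 55.3 in the same groups. Of the fibroblast markers, 6 in A375 vemurafenib, 5 in A375 DMSO and 7 in each A2058 group lay above the olfactory receptor range on all 3 arrays. The collagen genes COL1A1, COL1A2 and COL3A1, with PDGFRL and FBLN1, did so in all 4 groups, LUM in all but A375 DMSO and FAP in A2058 alone; DCN, THY1 and COL6A3 did so in none. Of the pericyte and smooth muscle markers, 8 in A375 vemurafenib, 7 in A375 DMSO, 9 in A2058 vemurafenib and 7 in A2058 DMSO did. In A375 the fibroblast sum was higher with vemurafenib, as PDGFRB was. In both A2058 groups the sum was higher than in either A375 group. PDGFRB was lower there (means 5.17 with vemurafenib and 5.20 with DMSO). The part of these markers in the PDGFRB result was not tested. For 7 measured markers of mast and other blood cells, which also carry KIT, the sums ran from 32.3 to 33.0 in A375 vemurafenib, 32.2 to 32.6 in A375 DMSO and 32.3 to 32.6 in A2058 vemurafenib, and were 32.3 in A2058 DMSO. The myeloid genes CD14 and ITGAM lay above the olfactory receptor range on all 3 arrays of each of the 4 groups, and the other 5, which include the mast cell genes CPA3, HDC and CMA1, did so in none. The 10 endothelial markers summed to 49.7 to 51.5 over all 12 arrays.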

How the data were processed

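Total RNA of 12 samples was amplified and labelled for Affymetrix arrays per the labels' protocols. The authors deposited log2 expression values for 32321 probe sets; R 3.0.1 and affy are named in the submitters' processing notes, and the background correction, summary method and genome build are not given in those notes or the labels. The log2 scale was read from the values (3.24 to 13.08), and array medians (5.19 to 5.30) nearly coincide, so no further scaling was applied; such values hide changes shared by all genes. The number of arrays limits the precision.

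Groups came from the sample titles. Of the probe sets, 19158 had 1 symbol in the platform annotation, 1388 several and 11775 none; those with 1 symbol gave 18404 genes, the brightest probe set kept where a gene had several. Names were checked against RefSeq (GRCh38.p14), which matched 19128 by Entrez number. A linear model with 4 group means was fitted to all 12 arrays in limma 3.58.1 (R 4.3.3; 8 residual and 3.98 prior degrees of freedom), two-sided, and was tested on simulated data. Named beside the 8 genes are, per list, line and direction, the 2 called genes with the largest change, with MITF, TFAP2A and SOX10 whatever their result, and, for genes whose group means span at least 0.5, the 3 genes with the highest Pearson r among those spanning at least 1. The 8 genes and the lists were chosen with earlier results of these data known. Listed genes without a probe set of their own were not analysed here. Alternatives were other probe set, normalization, filter, weighting, variance and block settings, and leaving out each array.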

Additional observations from a re-analysis of the deposited data

Results flagged for a closer look

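The response to vemurafenib differed between the lines, by the test of the difference itself, for 5 of the 8 genes, against 29.5% of all genes. All values are the A375 response minus the A2058 response on the log2 scale. The difference was -2.97 ± 0.066 for KIT (responses of -0.01 in A375 and 2.96 in A2058) and -0.61 ± 0.062 for PDGFRA (-0.49 and 0.12). It was 0.40 ± 0.077 for PDGFRB (0.37 in A375 and -0.03 in A2058). Smaller differences were those of KITLG (0.35 ± 0.11) and PDGFA (-0.23 ± 0.073), whose calls depended on single arrays. With 3 arrays a group, no array was tested as an outlier of its group.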

How the results depend on the processing

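Over 780 of 811 recomputed changes of single genes among the 8, the call stayed on its side of the threshold; 22 calls were lost, 9 were gained, and no called change turned its direction. The lost and gained calls concerned KITLG, PDGFA, PDGFB, PDGFD and PDGFRA. Leaving out each array in turn, 5 to 6 of the 8 genes were called for vemurafenib in A375, 3 to 6 in A2058, 3 to 6 for the difference of the responses, 6 between the lines with DMSO and 5 to 6 with vemurafenib. The count was 3 in A2058 without A2058 vemurafenib replicate 1, and 3 for the difference without A375 DMSO replicate 3, A2058 DMSO replicate 3 or A2058 vemurafenib replicate 3. PDGFA lost its difference with a robust variance trend (adjusted p = 0.0665). The counts over all genes ran from 6044 to 7785, 4172 to 5952, 4892 to 6638, 7826 to 9361 and 8013 to 9679 for these comparisons. Without A375 vemurafenib replicate 1, an alternative added after the data were seen for the 5 lists, each count of listed genes stayed within 1.5 times its value. The labels state no pairing, and equal replicate numbers showed no sign of one. Deviations from the group means correlated at -0.20 to 0.10 in A375 and -0.20 to 0.02 in A2058, and 2 of 12 arrays correlated best with their own number. Pairing is not excluded by this check, since the deviations of 3 arrays from their own mean are not independent. The replicate block shared by all groups gave the same counts of the 8 genes (5 in A375, 5 in A2058, 5 for the difference, 6 with DMSO and 5 with vemurafenib). The replicate block within each line gave 5 in A375, 4 in A2058, where KITLG was lost (adjusted p = 0.0686), and 3 for the difference of the responses, where KITLG (adjusted p = 0.0762) and PDGFA (0.0752) were lost, a fit with fewer residual degrees of freedom. With genes below the mean olfactory receptor level of 4.81 left out, KITLG was not tested.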
